A study of Mus musculus with 12 samples.

Results

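The comparison concerns bulge stem cells of the growing hair follicle that lost the transcription factor Foxc1, set against heterozygous cells of the same stage. Its members are the gene models of the anagen table that carry the status OK or NOTEST, which are 23730 of 23735 gene models, and 13716 of them (status OK) were tested by the authors. The knockout group (iKO) consisted of hair follicle stem cells sorted from the back skin of FOXC1-Sox9CreER-iKO mice (2 libraries, each from a male mouse). The control group came from mice labelled FOXC1-Sox9CreER-heterozygous (Het, 2 libraries, each from a male mouse). The labels name the libraries of a group as replicates, and all mice were at postnatal day 30, had a mixed Black Swiss and C57BL/6 background, and had been injected with tamoxifen, which per the labels moves Cre into the nucleus, removes FOXC1 and switches on a YFP reporter. Recombination in both groups was therefore limited to cells in which the Sox9 driver was active, and control cells carried the driver and the tamoxifen too. The labels call the controls heterozygous, so they are not wild-type mice, and no label says how their Foxc1 level compares with that of wild-type mice. A second comparison is used only to show where the anagen response differs: FOXC1-K14Cre-cKO cells (cKO, 2 libraries) against wild-type cells (WT, 2 libraries), all from Black Swiss mice in the second telogen; each of these groups joins a day 42 male with a day 46 female.

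The bulge is the part of the outer root sheath that houses the stem cells of the hair follicle. These cells divide briefly when a new hair cycle starts and then return to quiescence while the follicle below them is still growing. Foxc1 is a forkhead transcription factor that bulge stem cells switch on as they become active, and loss of it has been studied for its effect on that return to rest. Quiescence rests on low cyclin-dependent kinase activity, which leaves the pocket proteins bound to E2F factors and the DREAM complex on cell cycle promoters. Replication genes are typically released through E2F sites, and genes of mitosis through the cell cycle homology region.

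Expression is given as FPKM (fragments scaled by transcript length and by library size), with 1 pooled value per group and gene deposited by the authors. No value per library was given, so no spread between mice can be printed. The error of each log2 fold is instead the standard error (SE) implied by the authors' test statistic, and its median over tested genes was 0.28. A gene is called at a deposited q-value below 0.05, and only called genes are said to have risen or fallen. Sequencing depth is unknown because no table holds counts. In bulk RNA, fewer cells of a type and less RNA per cell cannot be told apart.

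Foxc1 was the called gene with the lowest fold among those at 1 FPKM or more in both groups. Its locus lies on chromosome 13 (mm9, 31898515 to 31902504), and it had 1.402 FPKM in iKO and 23.9 FPKM in Het cells, a log2 fold of -4.09 (SE 0.30), or 17.03-fold lower. Within 1 Mb of it, its relative Foxq1 also fell, with 1.31 FPKM in iKO and 2.91 FPKM in Het cells. Gmds, whose gene model has its nearer end close by, had 19.97 FPKM in iKO and 26.6 FPKM in Het cells and was not called, nor were Exoc2 (10.5 FPKM in iKO, 13.04 FPKM in Het cells) and Wrnip1 (23.8 FPKM in iKO, 23.1 FPKM in Het cells). Foxf2, the third forkhead gene of this cluster, was near 0 in both groups.

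The labelled cell type was checked against its markers. The basal keratin Krt14 had 4611 FPKM in iKO and 3846 FPKM in Het cells, the bulge factors Sox9 and Lgr5 were present at 75.7 and 57.4 FPKM in iKO cells and at 79.3 and 59.2 FPKM in Het cells, and Cd34, a surface marker commonly used to sort bulge cells, had 244 FPKM in iKO and 432 FPKM in Het cells. Krt15 and Krt5, the other basal keratins of the bulge, could not be tested: the authors' status for both is HIDATA, and Krt15 is listed at 6024 FPKM in iKO and at 0 in Het cells, a listing that is no measured level. Of 16 tested bulge markers, 6 fell and 0 rose. Markers of other cell types differed in level. Pecam1 of endothelium had 1.198 FPKM in iKO and 1.54 FPKM in Het cells. Of pericyte markers, Pdgfrb had 0.287 FPKM in iKO and 0.399 FPKM in Het cells but Cspg4 had 35.7 FPKM in iKO and 41.2 FPKM in Het cells. Of fat markers, Adipoq and Cfd were listed at 0 in both groups, while Fabp4 had 19.8 FPKM in iKO and 25.4 FPKM in Het cells. The melanocyte gene Dct had 13.7 FPKM in iKO and 20.1 FPKM in Het cells. Calls among these markers were 2 lower of 8 for endothelium (summed level 7.02 FPKM in iKO and 9.95 FPKM in Het cells). Pericytes and smooth muscle had 2 higher of 7, and Schwann cells had 1 lower of 7. Over all tested genes 5.18% were called higher and 5.08% lower. Hair germ markers gave 0 calls of 6, with 0 higher and 1 lower at an unadjusted p below 0.05, and of 8 junctional zone and sebaceous gland markers 1 fell, Lgr6 (2.51 FPKM in iKO, 6.199 FPKM in Het cells). The male-specific genes Ddx3y, Kdm5d, Uty and Eif2s3y were expressed in both groups and not called, and Xist was below 0.1 FPKM in both.

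In iKO cells 1408 of the 13716 tested genes (10.3%) changed: 711 rose (5.18%) and 697 fell (5.08%). The response was thus almost even in number but uneven in size and level. Genes that rose had a median fold of 2.05, and 378 of them reached 2-fold, whereas genes that fell had a median fold of 1.85, and 285 reached 2-fold. The deepest losses outnumbered the steepest gains, with 66 genes at least 4-fold lower and 38 at least 4-fold higher. These counts include genes listed at 0 in a group, 9 among those lower and 1 among those higher. By level, calls were most numerous between 3 and 10 FPKM, where 240 of 3392 genes rose and 208 fell. Above 300 FPKM, 9 of 300 genes rose and 5 fell. Below 1 FPKM, where the median SE reached 0.65, 36 of 1686 genes rose and 79 fell. Most of the transcriptome stayed close to its Het level: 77.5% of tested genes had a log2 fold within 0.5 of 0, and the median log2 fold was -0.03.

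**Figure D1:**
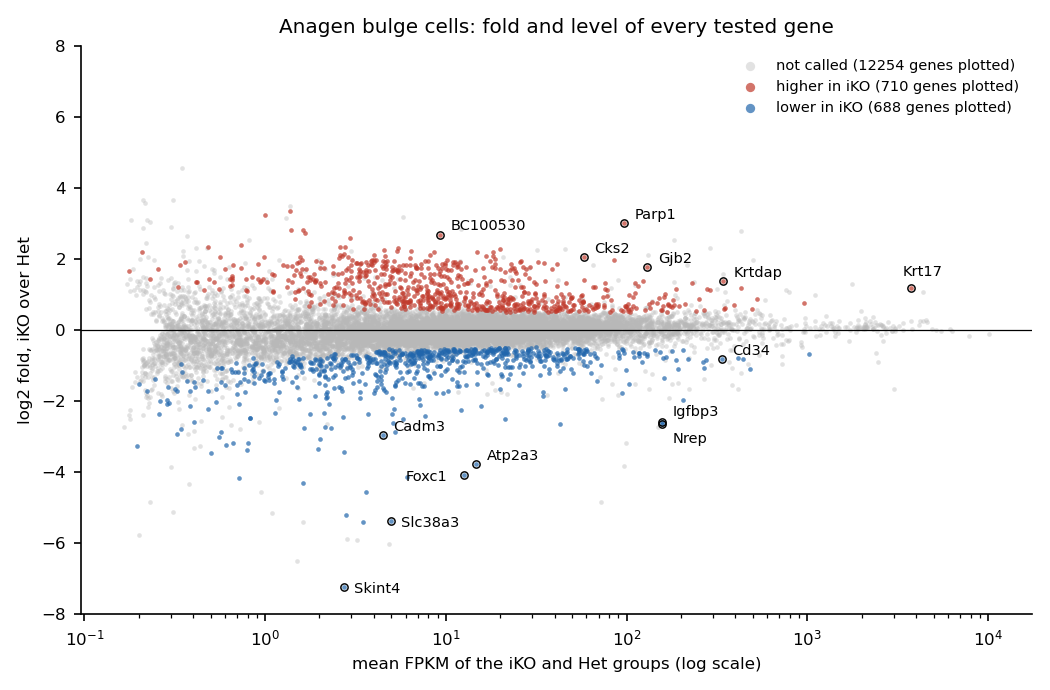
Each point is a tested gene, placed by the mean FPKM of the iKO and Het groups (x axis, log scale) and its log2 fold, iKO over Het (y axis); red and blue mark genes called higher and lower in iKO cells, and genes listed at 0 in a group cannot be plotted. Called genes lie on both sides over the whole range of levels, with Foxc1, Atp2a3, Slc38a3 and Skint4 among the circled genes below 0 and Parp1 the highest of the circled genes.

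Cell cycle genes made up the most uniform block of the response. Across the lists for replication and mitosis, which hold 182 distinct tested genes, 132 rose and 1 fell in iKO cells. The numbers of higher calls stand far above the 5.18% of all tested genes, and they are described here by step of the cycle. The lists were compiled with earlier results on these samples known, so these counts are a description.

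DNA replication starts when the MCM helicase is loaded and fired at origins. Of 53 genes of the origin and fork, 38 rose and 0 fell, and the median log2((FPKM + 1) ratio) was 0.90, against -0.02 over all tested genes. Mcm6, a helicase subunit, had 64.7 FPKM in iKO and 17.9 FPKM in Het cells and was 3.61-fold higher (log2 fold 1.85, SE 0.25). Mcm5 had 42.9 FPKM in iKO and 13.00 FPKM in Het cells, and Mcm3 had 34.3 FPKM in iKO and 10.7 FPKM in Het cells. Dbf4, which activates the kinase that fires origins, had 13.8 FPKM in iKO and 3.88 FPKM in Het cells (3.56-fold higher). Asf1b, a chaperone that hands histones to the replicated strand, had 16.1 FPKM in iKO and 4.11 FPKM in Het cells (3.92-fold higher). The helicase subunits, the activator and the chaperone were named as called members with the largest statistics. Their similar folds follow from that choice and do not describe the list. Rfc2 and Rpa3, a clamp loader subunit and a single-strand binding subunit, were the most abundant members not called, with 45.4 FPKM in iKO and 33.1 FPKM in Het cells for Rfc2 and 48.3 FPKM in iKO and 33.1 FPKM in Het cells for Rpa3.

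The supply of deoxynucleotides changed more selectively. Of 28 genes of nucleotide synthesis, 10 rose and 0 fell. Both subunits of ribonucleotide reductase rose: Rrm1 had 58.1 FPKM in iKO and 24.7 FPKM in Het cells, and Rrm2 had 42.4 FPKM in iKO and 15.3 FPKM in Het cells. Thymidine kinase Tk1 had 51.4 FPKM in iKO and 19.7 FPKM in Het cells, and thymidylate synthase Tyms had 12.2 FPKM in iKO and 5.57 FPKM in Het cells. The purine enzymes Paics (104 FPKM in iKO, 81.4 FPKM in Het cells) and Impdh2 (120.1 FPKM in iKO, 96.4 FPKM in Het cells), which dividing and resting cells both use, were not called.

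Genes of the kinetochore, which ties chromosomes to the spindle, rose in 27 of 36 cases with 0 lower and a median log2 ratio of 1.20. Ndc80, the microtubule-binding subunit, had 8.81 FPKM in iKO and 1.897 FPKM in Het cells (4.64-fold higher). Cenpa, the histone that marks centromeres, had 40.8 FPKM in iKO and 10.8 FPKM in Het cells (3.78-fold higher). Among mitotic kinases and checkpoint genes, 23 of 28 rose and 1 fell, with a median of 1.42. Cdk1, the kinase that starts mitosis, had 29.4 FPKM in iKO and 6.905 FPKM in Het cells, a log2 fold of 2.09 (SE 0.26). The checkpoint genes Bub1b (17.3 FPKM in iKO, 4.58 FPKM in Het cells) and Mad2l1 (28.8 FPKM in iKO, 8.62 FPKM in Het cells) rose by 3.78-fold and 3.34-fold. Ube2c, the ubiquitin-conjugating enzyme of the anaphase-promoting complex, had 59.6 FPKM in iKO and 18.3 FPKM in Het cells. The gene of this list that fell, named here after its values were seen, was Cdc25b, a phosphatase that activates Cdk1, with 29.4 FPKM in iKO and 42.5 FPKM in Het cells.

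The list of mitotic motors and spindle proteins had the highest share of calls of any list, with 26 of 29 higher, 0 lower and a median of 1.55. Kif11, the motor that pushes spindle poles apart, had 15.6 FPKM in iKO and 4.27 FPKM in Het cells, and the chromosome-bound motor Kif4 had 6.48 FPKM in iKO and 1.52 FPKM in Het cells. Prc1, which bundles the central spindle, had 36.8 FPKM in iKO and 10.99 FPKM in Het cells. Anln, a scaffold of the cleavage furrow, had 29.9 FPKM in iKO and 6.53 FPKM in Het cells (4.57-fold higher), and Cep55, needed for the final cut between daughter cells, had 13.3 FPKM in iKO and 3.08 FPKM in Het cells (4.32-fold higher). Genes of the last step of division were thus among those with the highest folds. Condensin and cohesin split: 9 of 20 rose, including the condensin subunit Smc2 (17.4 FPKM in iKO, 6.02 FPKM in Het cells) and the cohesin regulators Esco2 (10.2 FPKM in iKO, 2.49 FPKM in Het cells) and Cdca5 (8.197 FPKM in iKO, 2.13 FPKM in Het cells), whereas the cohesin core genes Smc1a (53.4 FPKM in iKO, 45.5 FPKM in Het cells) and Rad21 (82.9 FPKM in iKO, 61.8 FPKM in Het cells) were not called.

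Among cyclins and cyclin-dependent kinases, 9 of 16 rose and 0 fell. Cks2, a small partner of these kinases, had 93.4 FPKM in iKO and 22.6 FPKM in Het cells and the highest fold of the list (4.14-fold, log2 fold 2.05, SE 0.22). Cyclin E1 of the G1/S boundary had 5.03 FPKM in iKO and 1.38 FPKM in Het cells, cyclin A2 of S phase (Ccna2) had 44.9 FPKM in iKO and 13.3 FPKM in Het cells, and the mitotic cyclin B1 (Ccnb1) had 41.3 FPKM in iKO and 10.8 FPKM in Het cells. Cdk4, which acts in G1, had 226 FPKM in iKO and 192 FPKM in Het cells and was not called.

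The brakes on these kinases did not move together. Cdkn1a, encoding p21, had 45.98 FPKM in iKO and 48.4 FPKM in Het cells. Cdkn1b, encoding p27, had 80.7 FPKM in iKO and 97.04 FPKM in Het cells. Cdkn1c, encoding p57, had 0.702 FPKM in iKO and 1.21 FPKM in Het cells, and Cdkn2b, encoding p15, had 1.81 FPKM in iKO and 1.67 FPKM in Het cells. None of these 4 was called, and their log2 folds were -0.07 (SE 0.25), -0.27 (SE 0.22), -0.78 (SE 0.59) and 0.12 (SE 0.46). The Ink4 inhibitor Cdkn2c rose, with 18.99 FPKM in iKO and 7.65 FPKM in Het cells, as did the phosphatase Cdkn3, with 11.2 FPKM in iKO and 3.32 FPKM in Het cells. Of the pocket proteins, Rbl1 (p107) rose, with 14.7 FPKM in iKO and 6.92 FPKM in Het cells, while Rb1 (16.6 FPKM in iKO, 17.98 FPKM in Het cells) and Rbl2 (12.2 FPKM in iKO, 13.04 FPKM in Het cells) were not called. Cdkn2a was listed at 0 in both groups.

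**Figure D2:**
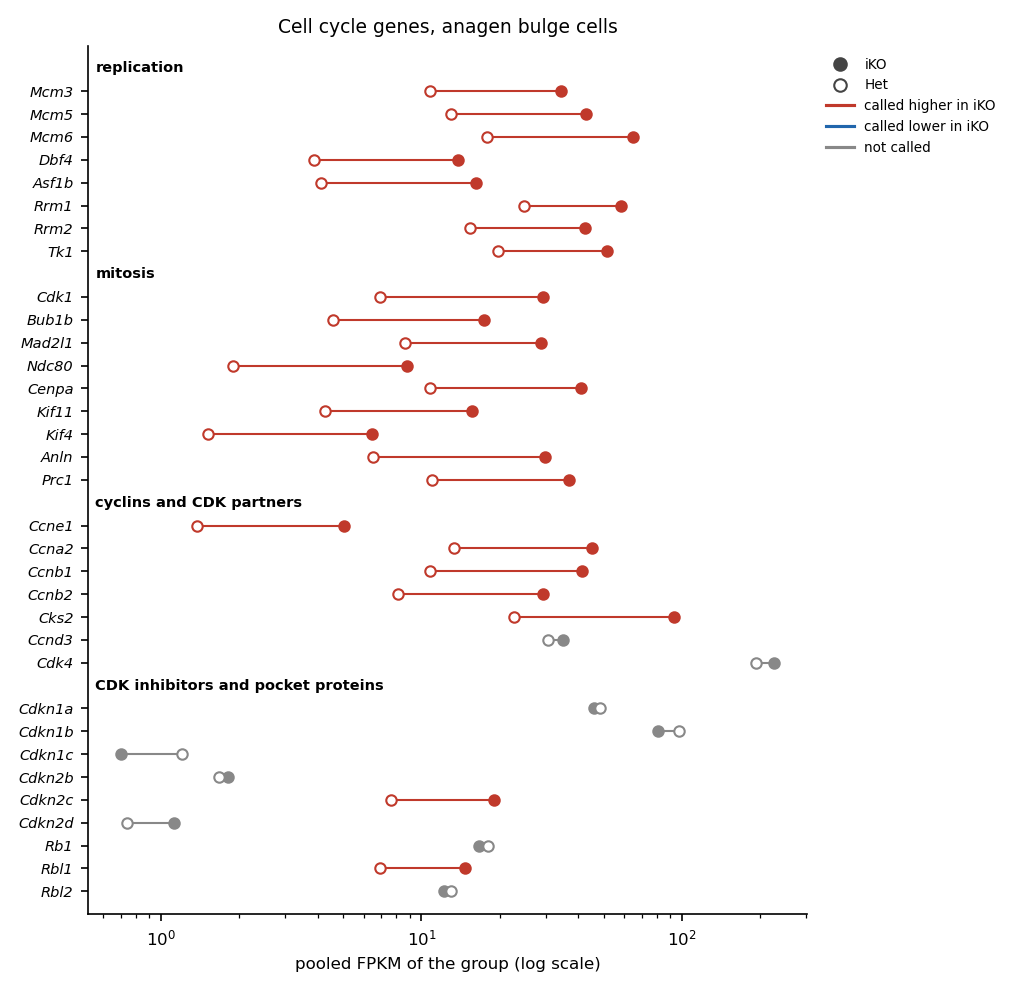
Pooled FPKM of cell cycle genes in iKO (filled) and Het (open) cells on a log axis, 1 gene per line, with red lines for genes called higher in iKO cells and grey lines for genes not called. The replication and mitosis genes drawn differ by 2.35-fold (Rrm1) to 4.64-fold (Ndc80), whereas the points of Cdkn1a, Cdkn2b, Rb1 and Rbl2 nearly touch.

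Transcription factors of the cycle rose in 8 of 20 cases, and 1 fell. E2f1, an activator, had 10.8 FPKM in iKO and 5.05 FPKM in Het cells, and E2f8, a late repressor of the same family, had 4.23 FPKM in iKO and 1.61 FPKM in Het cells. Mybl2 (B-Myb), which joins the MuvB core to drive mitotic genes, had 8.18 FPKM in iKO and 2.59 FPKM in Het cells, and the MuvB subunit Lin54 had 6.604 FPKM in iKO and 3.74 FPKM in Het cells. E2f4, the E2F of resting cells, had 21.2 FPKM in iKO and 18.7 FPKM in Het cells and was not called, nor was Myc (21.5 FPKM in iKO, 23.1 FPKM in Het cells).

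The promoters of these genes are shown to compare short sequences at the starts of the gene groups that rose. Windows from 250 bases before to 50 after the start were taken from RefSeq (GRCm38.p6). They were found for 64 of the 76 mitotic genes that rose (84.2%) and for 31 of the 38 replication genes that rose (81.6%). The core of the cell cycle homology region (TTTGAA on either strand) was present in 40 of 64 mitotic windows (62.5%, 95% Wilson interval 50.3 to 73.3%), in 7 of 31 replication windows (22.6%, interval 11.4 to 39.8%), and in 18.1% of the windows of all 27025 genes in the RefSeq table. An E2F site core (TTTGGCG or TTTCCCG, either strand) was present in 9 of 64 mitotic windows (14.1%), in 16 of 31 replication windows (51.6%, interval 34.8 to 68.0%), and in 4.98% of all windows. The NF-Y core CCAAT was found in 70.3% of mitotic, 54.8% of replication and 37.9% of all windows. A forkhead core (TAAACA) was found in 12.5% of mitotic, 3.23% of replication and 13.4% of all windows. A TATA box (TATAAA) was found in 4.69% of mitotic, 6.45% of replication and 14.2% of all windows. Matches of different motifs were counted separately and may overlap. In the 250 bases before the start alone, the share of TTTGAA was 25.0% in mitotic windows, against 16.3% in all windows, and the share of E2F cores was 32.3% in replication windows, against 4.02% in all windows, so the larger part of the mitotic windows with TTTGAA held it only when the 50 bases after the start were counted. The median GC content was 59.0% in mitotic, 61.3% in replication and 52.7% in all windows, and its part in these shares was not tested. A match is a run of letters and not a measured binding site.

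The 8 stretches below end at the transcription start or a fixed distance after the motif. They were taken from 4 genes per group with large statistics among those holding the motif before the start, and capitals mark the motif. Not every gene was eligible for this choice, so genes with a larger statistic may have been left out. The first 4 hold the core of the cell cycle homology region, as TTTGAA or its reverse complement TTCAAA.
Cdk1, chr10:69352913-69352954, minus strand: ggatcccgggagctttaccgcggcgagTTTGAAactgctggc
Ube2c, chr2:164769873-164769928, plus strand: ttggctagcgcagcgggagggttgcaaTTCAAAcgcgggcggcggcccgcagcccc
Ckap2, chr8:22185888-22185947, minus strand: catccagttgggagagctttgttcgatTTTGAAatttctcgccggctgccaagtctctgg
Kif11, chr19:37376336-37376381, plus strand: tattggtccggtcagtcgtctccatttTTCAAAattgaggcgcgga
The other 4 hold an E2F core, as TTTGGCG or its reverse complement CGCCAAA.
Mcm6, chr1:128359719-128359779, minus strand: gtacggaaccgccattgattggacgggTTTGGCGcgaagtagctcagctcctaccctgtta
Mcm5, chr8:75109334-75109394, plus strand: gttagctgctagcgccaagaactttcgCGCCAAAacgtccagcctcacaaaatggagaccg
Dtl, chr1:191575545-191575579, minus strand: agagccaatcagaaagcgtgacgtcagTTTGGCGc
Clspn, chr4:126556833-126556893, plus strand: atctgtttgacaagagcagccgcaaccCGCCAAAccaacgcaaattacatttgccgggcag
The motif ends 9 bases before the start in Cdk1, 23 in Ube2c, 95 in Ckap2 and 13 in Kif11, and 40 bases before it in Mcm6, 141 in Mcm5, 1 in Dtl and 113 in Clspn. The windows of Cdk1 and Mcm6 each hold 2 matches before the start. Ckap2, a spindle protein, had 27.99 FPKM in iKO and 7.26 FPKM in Het cells. Dtl, which marks replication factors for destruction in S phase, had 8.65 FPKM in iKO and 2.67 FPKM in Het cells, and Clspn, a checkpoint adaptor at the fork, had 4.98 FPKM in iKO and 1.64 FPKM in Het cells.

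**Figure D3:**
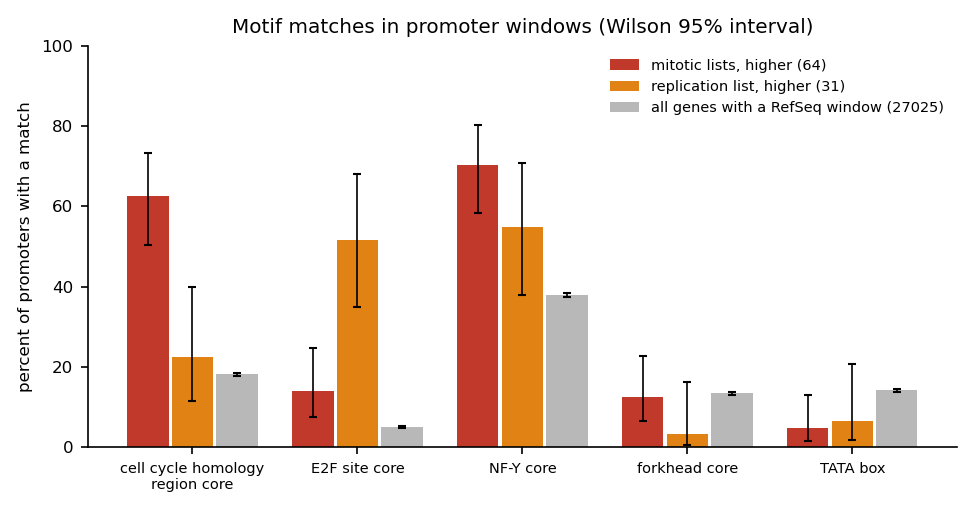
Percent of RefSeq promoter windows with a match to each motif (y axis) for mitotic genes that rose, replication genes that rose, and all genes in the table, with Wilson 95% intervals as error bars. The cell cycle homology region core stands highest in the mitotic group at 62.5%, and the E2F core in the replication group at 51.6%.

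Of 43 genes of homologous recombination and repair, which guard the replicating genome, 16 rose and 0 fell. The checkpoint kinase Chek1 had 6.52 FPKM in iKO and 1.66 FPKM in Het cells (3.92-fold higher). Xrcc1 (21.9 FPKM in iKO, 21.1 FPKM in Het cells) and Parp2 (24.3 FPKM in iKO, 23.98 FPKM in Het cells), which serve base excision repair outside S phase, were not called. Parp1, the main poly(ADP-ribose) polymerase, had the highest fold of all called genes at 1 FPKM or more in both groups: 172 FPKM in iKO and 21.4 FPKM in Het cells, or 8.05-fold (log2 fold 3.01, SE 0.18). In telogen it was at 96.99 FPKM in cKO and 115 FPKM in WT cells and was not called; those values come from a table scaled separately, and the Het anagen value is the lowest of these 4. The difference between both log2 folds of Parp1, 3.25 with an SE of 18.88, nearly all of it from the telogen fold, did not pass the test described at the end.

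Targets of p53, by contrast, gave 2 higher and 3 lower calls among 24 genes (8.33% and 12.5%, against 5.18% and 5.08% of all tested genes). Plk2 had 26.7 FPKM in iKO and 14.8 FPKM in Het cells and the BH3 gene Pmaip1 had 7.18 FPKM in iKO and 4.55 FPKM in Het cells, both higher. Sesn1, a stress-response gene of the sestrin family, had 40.2 FPKM in iKO and 74.2 FPKM in Het cells, Gadd45g had 15.9 FPKM in iKO and 53.2 FPKM in Het cells, and the damage sensor Xpc had 15.6 FPKM in iKO and 24.6 FPKM in Het cells, all lower. The list as a whole showed a median log2 ratio of -0.06.

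Chromatin and nuclear lamina genes rose in 13 of 39 cases and fell in 2. Uhrf1, which guides maintenance methylation to replicated DNA, had 36.5 FPKM in iKO and 12.1 FPKM in Het cells, and the helicase Hells had 16.3 FPKM in iKO and 5.105 FPKM in Het cells. The variant histone gene H2afz had 397 FPKM in iKO and 182 FPKM in Het cells. Among replication-dependent histone genes 0 of 28 rose and 1, Hist1h2bc, fell (48.2 FPKM in iKO, 77.8 FPKM in Het cells). Their mRNAs lack a poly(A) tail and the libraries were made with an mRNA kit, and 36 of the 64 members found were not tested.

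Among regulators of the resting stem cell all calls were lower. Of 26 transcription factors and regulators of bulge stem cells, 8 fell (Foxc1 among them) and 0 rose, and 23 had the smaller value in iKO cells. Id2 and Id3, inhibitors of differentiation that BMP signals switch on, were the most abundant that fell: Id2 had 173 FPKM in iKO and 365 FPKM in Het cells and Id3 had 198 FPKM in iKO and 354 FPKM in Het cells. The homeobox gene Dlx3 had 12.9 FPKM in iKO and 25.7 FPKM in Het cells, and the forkhead gene Foxp1, which supports stem cell quiescence, had 10.03 FPKM in iKO and 18.2 FPKM in Het cells. Sox9 and the homeobox gene Barx2 (308 FPKM in iKO, 327 FPKM in Het cells) were not called. Of the 10 tested SOX factors 0 were called by Cuffdiff in the anagen table or the joint table, and 0 had the larger and 2 the smaller value in iKO cells at an unadjusted p below 0.05; Sox9 had a log2 fold of -0.07 (SE 0.23).

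**Figure D4:**
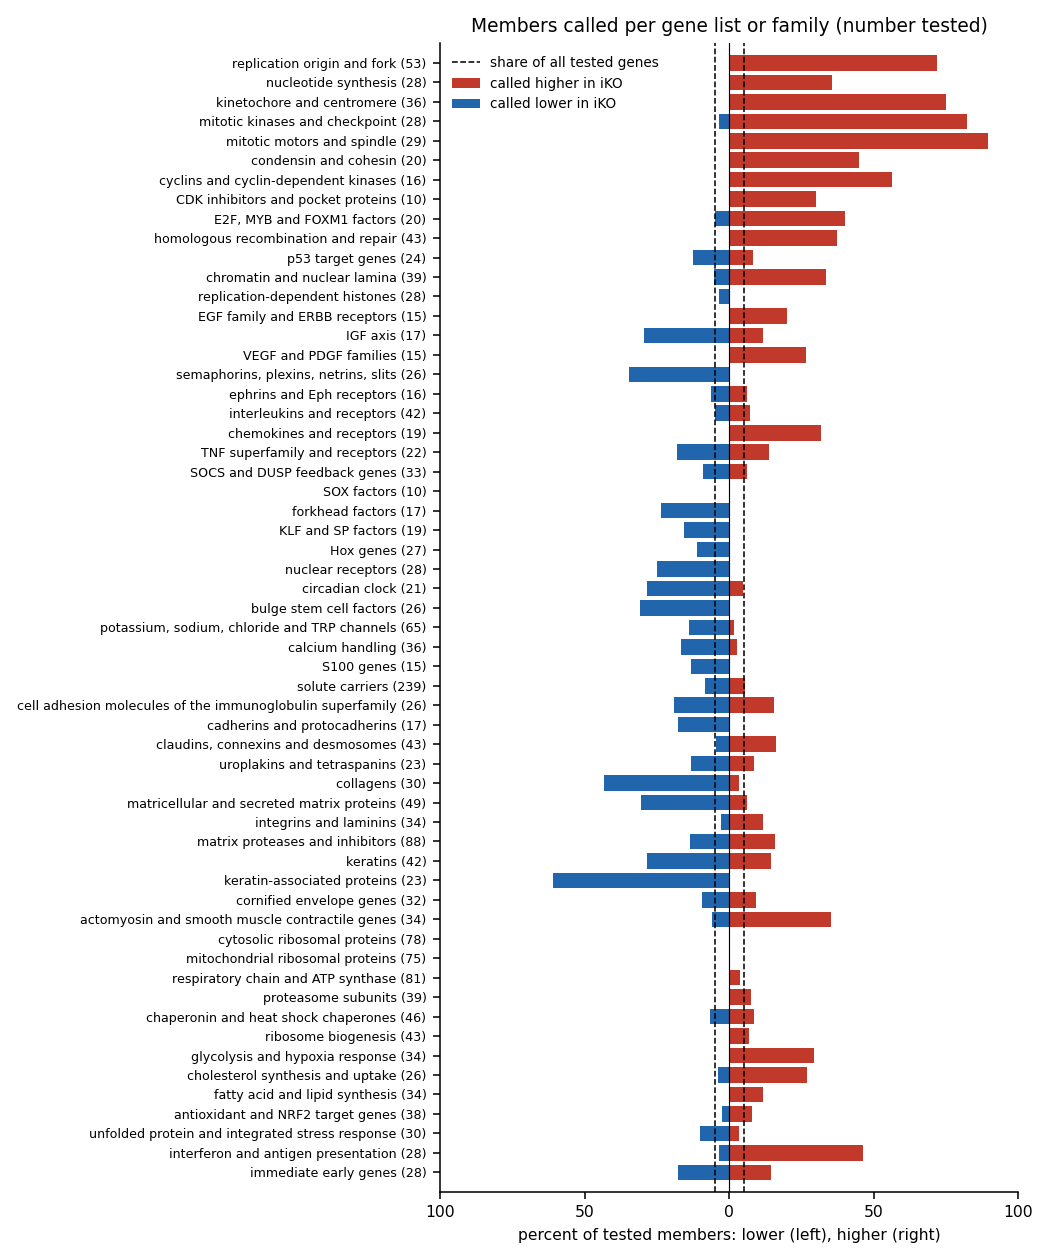
Percent of the tested members of each list or family called higher (right) and lower (left) in iKO cells, with the number tested in brackets; dashed lines mark the shares of all tested genes, 5.18% and 5.08%. Replication and mitosis lists reach far to the right, keratin-associated proteins, collagens and matricellular proteins to the left, and ribosomal proteins have no calls in the anagen table.

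Forkhead genes other than Foxc1 fell as well. Among 17 tested forkhead genes 4 fell and 0 rose, with Foxo6 (1.15 FPKM in iKO, 2.47 FPKM in Het cells) beside Foxc1, Foxp1 and Foxq1. Among nuclear receptors 7 of 28 fell and 0 rose. The thyroid hormone receptor Thra had 25.4 FPKM in iKO and 45.8 FPKM in Het cells, and the retinoid-related receptor Rora had 3.96 FPKM in iKO and 7.18 FPKM in Het cells. The vitamin D receptor Vdr (98.8 FPKM in iKO, 103 FPKM in Het cells) was not called. Of 19 KLF and SP factors, 3 fell (15.8%, against 5.08% of all tested genes). They were Klf3 (19.4 FPKM in iKO, 29.7 FPKM in Het cells), Klf4 (116 FPKM in iKO, 171 FPKM in Het cells) and Klf9 (4.64 FPKM in iKO, 7.27 FPKM in Het cells). Of 27 Hox genes, 24 had the smaller value in iKO cells, and 3 were called lower (11.1%, against 5.08% of all tested genes). The called genes were Hoxa2 (7.24 FPKM in iKO, 12.8 FPKM in Het cells), Hoxa7 (19.7 FPKM in iKO, 35.8 FPKM in Het cells) and Hoxb5 (6.34 FPKM in iKO, 10.3 FPKM in Het cells).

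Clock genes moved in a mixed way, with 6 of 21 lower and 1 higher. Npas2, a partner of the clock activator, had 1.402 FPKM in iKO and 5.26 FPKM in Het cells (3.75-fold lower). The repressor Nr1d1 had 4.05 FPKM in iKO and 6.93 FPKM in Het cells, and Nfil3, a repressor of the clock's output, had 51.5 FPKM in iKO and 80.9 FPKM in Het cells. Bhlhe40 was the exception, with 13.6 FPKM in iKO and 5.58 FPKM in Het cells.

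Signals that stem cells send and receive changed in both directions. Insulin-like growth factor binding proteins gave large losses: Igfbp3 had 44.3 FPKM in iKO and 269 FPKM in Het cells (6.07-fold lower, log2 fold -2.60, SE 0.24), and Igfbp5 had 4.23 FPKM in iKO and 20.02 FPKM in Het cells (4.74-fold lower). Igfbp6 had 26.9 FPKM in iKO and 44.5 FPKM in Het cells, and Igf2 fell from a low level, with 0.0833 FPKM in iKO and 0.434 FPKM in Het cells. Htra1, a secreted protease that can cleave binding proteins, rose, with 83.9 FPKM in iKO and 31.8 FPKM in Het cells. Igfbp7 (346 FPKM in iKO, 351 FPKM in Het cells) was not called. In all, 5 of 17 genes of the axis fell and 2 rose.

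Gdf10, a secreted member of the TGF-beta superfamily, had 11.7 FPKM in iKO and 73.6 FPKM in Het cells (6.299-fold lower). Fgf18, which bulge cells produce and which prolongs rest, had 6.47 FPKM in iKO and 13.8 FPKM in Het cells and fell. The WNT inhibitor Sfrp1 had 319 FPKM in iKO and 558 FPKM in Het cells. Smoc1, a secreted modulator of BMP signals, had 1.74 FPKM in iKO and 9.81 FPKM in Het cells (5.64-fold lower). Receptors for other cues fell beside them: the endothelin receptor Ednra had 2.400 FPKM in iKO and 12.99 FPKM in Het cells, and Gfra2, a co-receptor of the GDNF family, had 1.63 FPKM in iKO and 8.39 FPKM in Het cells.

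Of the growth factors of the EGF family 3 rose. Hbegf had 22.1 FPKM in iKO and 9.91 FPKM in Het cells, Epgn had 12.1 FPKM in iKO and 4.62 FPKM in Het cells, and Nrg1 had 5.33 FPKM in iKO and 1.46 FPKM in Het cells (3.65-fold higher), which makes 3 of 15 members higher and 0 lower. Egfr, the receptor of Hbegf and Epgn, had 42.2 FPKM in iKO and 46.1 FPKM in Het cells and was not called. Of VEGF and PDGF family genes, 4 of 15 rose and 0 fell, including Vegfa (14.9 FPKM in iKO, 7.38 FPKM in Het cells) and Figf (2.74 FPKM in iKO, 1.05 FPKM in Het cells). Their endothelial receptors Kdr and Flt1 were below 0.3 FPKM in both groups.

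Axon guidance cues, which epithelia also use, fell in 9 of 26 cases with 0 higher. Plxna2 had 14.05 FPKM in iKO and 28.7 FPKM in Het cells, the ligand Sema3f had 29.2 FPKM in iKO and 44.2 FPKM in Het cells, and the receptor Plxnb1 had 32.2 FPKM in iKO and 50.5 FPKM in Het cells. Of 16 ephrins and Eph receptors, Efnb2 fell (31.4 FPKM in iKO, 67.7 FPKM in Het cells) and Ephb3 rose (41.6 FPKM in iKO, 27.1 FPKM in Het cells). That is 6.25% each way, near the 5.08% and 5.18% of all tested genes.

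Chemokine genes rose in 6 of 19 cases, and 0 fell. Ccl2, which attracts monocytes, had 4.62 FPKM in iKO and 0.912 FPKM in Het cells, and Ccl20 had 5.08 FPKM in iKO and 0.853 FPKM in Het cells. Cxcl16 had 25.5 FPKM in iKO and 12.7 FPKM in Het cells, and Cxcl12 had 63.8 FPKM in iKO and 34.6 FPKM in Het cells. The abundant epithelial chemokine Cxcl14 (1438 FPKM in iKO, 1530.2 FPKM in Het cells) was not called. Among 22 genes of the TNF superfamily, 3 receptors rose (13.6%) and 4 members fell (18.2%), against 5.18% and 5.08% of all tested genes. Tnfrsf12a, the TWEAK receptor, had 178 FPKM in iKO and 68.7 FPKM in Het cells, and Tnfrsf4 had 41.7 FPKM in iKO and 20.8 FPKM in Het cells; the neurotrophin receptor Ngfr had 4.64 FPKM in iKO and 8.63 FPKM in Het cells. Interleukin genes gave 3 higher and 2 lower calls among 42 (7.14% and 4.76%), near the 5.18% and 5.08% of all tested genes, with Il18r1 (2.43 FPKM in iKO, 0.349 FPKM in Het cells) and Il6ra (4.41 FPKM in iKO, 1.32 FPKM in Het cells) higher and Il31ra (12.3 FPKM in iKO, 31.8 FPKM in Het cells) lower. Feedback genes of MAP kinase and cytokine signalling gave 2 higher and 3 lower calls among 33 (6.06% and 9.09%), against 5.18% and 5.08% of all tested genes. The ERK phosphatase Dusp6 had 41.2 FPKM in iKO and 13.8 FPKM in Het cells, while Dusp1, an immediate early phosphatase, had 159 FPKM in iKO and 279.9 FPKM in Het cells.

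Antigen presentation genes rose in 13 of 28 cases of the interferon list, and 1 fell. The class I light chain B2m had 596 FPKM in iKO and 263 FPKM in Het cells, a gain among the largest in FPKM. The inducible proteasome subunits Psmb8, Psmb9 and Psmb10 were the only members called of 39 proteasome genes: Psmb8 had 18.04 FPKM in iKO and 4.97 FPKM in Het cells, Psmb9 had 20.02 FPKM in iKO and 7.57 FPKM in Het cells, and Psmb10 had 11.05 FPKM in iKO and 6.28 FPKM in Het cells. Mill1, a class I-like molecule, had 33.2 FPKM in iKO and 6.88 FPKM in Het cells (4.83-fold higher). Class I genes are near-identical copies that may share reads, so H2-K1 (196 FPKM in iKO, 106 FPKM in Het cells) is uncertain to that extent. Of 11 tested immune cell markers 1, Cd74, rose (18.6 FPKM in iKO, 7.53 FPKM in Het cells), and 0 fell; their summed level was 40.6 FPKM in iKO and 28.1 FPKM in Het cells, while the pan-leukocyte marker Ptprc, named after its values were seen, was below 0.3 FPKM in both groups. H2-Ab1 (7.40 FPKM in iKO, 5.62 FPKM in Het cells) and H2-Aa (4.14 FPKM in iKO, 4.12 FPKM in Het cells), from the same list, were not called. The part of immune cells in the antigen presentation values was not tested.

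Genes of the extracellular matrix were called lower at several times the 5.08% of all tested genes. Of 30 collagens, 13 fell and 1 rose, with a median log2 ratio of -0.34, and of 49 matricellular and secreted matrix genes, 15 fell and 3 rose. Nrep, an intracellular regulator of matrix and TGF-beta responses kept in this list, had 43.4 FPKM in iKO and 273 FPKM in Het cells (6.29-fold lower, log2 fold -2.65, SE 0.26). Nephronectin (Npnt), a basement membrane protein through which bulge cells anchor the arrector pili muscle, had 90.9 FPKM in iKO and 231 FPKM in Het cells (2.54-fold lower). Col6a1 had 62.2 FPKM in iKO and 137 FPKM in Het cells, and Col6a2 had 19.8 FPKM in iKO and 39.9 FPKM in Het cells. The fibrillar collagen genes Col1a1 (14.5 FPKM in iKO, 27.8 FPKM in Het cells), Col1a2 (11.8 FPKM in iKO, 28.8 FPKM in Het cells) and Col3a1 (14.8 FPKM in iKO, 30.4 FPKM in Het cells) fell too. Col17a1, which anchors basal cells, had 818 FPKM in iKO and 1031 FPKM in Het cells and was not called. Galectin-1 (Lgals1) went against the trend, with 324 FPKM in iKO and 176 FPKM in Het cells.

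The collagens named here overlap with the dermal fibroblast markers, of which 5 of 15 tested fell and 1 rose. Their summed level was 524 FPKM in iKO and 811 FPKM in Het cells, most of it from Sparc (300.3 FPKM in iKO, 442 FPKM in Het cells), and none of the 16 markers was listed at 0. Pdgfra, a defining fibroblast surface marker named after its values were seen, was below 0.5 FPKM in both groups. Fbln1, from the same list, had 32.0 FPKM in iKO and 34.1 FPKM in Het cells and was not called. Of the 9 tested dermal papilla markers 0 were called in the anagen table, 4 were lower at an unadjusted p below 0.05, 2 were called lower in the joint table, and all 9 had the smaller value in iKO cells. The part of fibroblasts in the collagen values was not tested.

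Matrix proteases and their inhibitors were split, with 14 of 88 higher (15.9%) and 12 lower (13.6%), against 5.18% and 5.08% of all tested genes. Timp3, a metalloprotease inhibitor, had 163 FPKM in iKO and 69.01 FPKM in Het cells, and the cathepsin Ctsc had 17.9 FPKM in iKO and 6.62 FPKM in Het cells. Adamts17 had 1.24 FPKM in iKO and 4.09 FPKM in Het cells and fell. Members of the Serpina3 cluster went both ways, with Serpina3h (91.6 FPKM in iKO, 39.6 FPKM in Het cells) higher and Serpina3b (0.0828 FPKM in iKO, 0.917 FPKM in Het cells) lower, and these paralogs may share reads. Of 34 integrins and laminins 4 rose (11.8%, against 5.18% of all tested genes) and 1 fell. Itga5, the fibronectin receptor subunit, had 4.15 FPKM in iKO and 6.28 FPKM in Het cells, and Lamb1 had 30.97 FPKM in iKO and 18.8 FPKM in Het cells. Itgb1 (193 FPKM in iKO, 148 FPKM in Het cells) was not called, and Lamb3 was left out because its test failed.

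Cell contacts gave 7 higher and 2 lower calls among 43 genes of claudins, connexins and desmosomes. Gap junction genes diverged: Gjb2 had 202 FPKM in iKO and 59.3 FPKM in Het cells (3.41-fold higher) and Gja1 had 676 FPKM in iKO and 372 FPKM in Het cells, while Gjb5 (20.4 FPKM in iKO, 36.4 FPKM in Het cells) fell. Epcam, an epithelial adhesion molecule, had 92.8 FPKM in iKO and 40.4 FPKM in Het cells. Desmosomal genes such as Dsp (339 FPKM in iKO, 356 FPKM in Het cells) and Dsc3 (376 FPKM in iKO, 362 FPKM in Het cells) were not called. E-cadherin (Cdh1, 131 FPKM in iKO, 141 FPKM in Het cells) and P-cadherin (Cdh3, 58.96 FPKM in iKO, 48.2 FPKM in Het cells) were not called either, while the large cadherins Fat2 (15.99 FPKM in iKO, 25.8 FPKM in Het cells), Celsr2 (10.5 FPKM in iKO, 15.7 FPKM in Het cells) and Pcdh1 (7.76 FPKM in iKO, 11.7 FPKM in Het cells) fell, which were 3 of 17 cadherin genes. Cadm3, a nectin-like adhesion molecule best known from neurons, had 1.02 FPKM in iKO and 7.94 FPKM in Het cells (7.82-fold lower), and its relative Cadm1 had 37.1 FPKM in iKO and 63.8 FPKM in Het cells. The list of adhesion molecules of the immunoglobulin superfamily that holds them gave 5 lower and 4 higher calls of 26. Upk1b, a urothelial plaque protein, had 7.48 FPKM in iKO and 1.59 FPKM in Het cells and rose, whereas Upk3bl had 1.26 FPKM in iKO and 9.18 FPKM in Het cells and fell. Their family of uroplakins and tetraspanins had 2 higher and 3 lower calls of 23 (8.70% and 13.0%, against 5.18% and 5.08% of all tested genes).

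Calcium and ion channel genes were called lower more often than higher. Atp2a3, a calcium pump of the endoplasmic reticulum, had 2.01 FPKM in iKO and 27.5 FPKM in Het cells (13.7-fold lower, log2 fold -3.77, SE 0.32). Its widely expressed relative Atp2a2 had 99.99 FPKM in iKO and 115 FPKM in Het cells and was not called. The calcium-dependent kinase Camk4 had 1.41 FPKM in iKO and 8.77 FPKM in Het cells, and its activator Camkk1 had 7.86 FPKM in iKO and 16.1 FPKM in Het cells. Orai1, the pore of store-operated entry, rose, with 12.8 FPKM in iKO and 7.08 FPKM in Het cells. In all, 6 of 36 calcium genes fell and 1 rose, and of 65 ion channel genes 9 fell and 1 rose, the potassium channel Kcnk2 (28.5 FPKM in iKO, 60.4 FPKM in Het cells) being the most abundant of those named. Of 239 solute carriers 20 fell (8.37%) and 13 rose (5.44%), against 5.08% and 5.18% of all tested genes. The glutamine carrier Slc38a3 had 0.234 FPKM in iKO and 9.68 FPKM in Het cells, and the amino acid carrier Slc7a8 had 66.4 FPKM in iKO and 26.6 FPKM in Het cells. The water and glycerol channel Aqp3 had 303 FPKM in iKO and 522 FPKM in Het cells and fell. S100a4 and S100a3, calcium-binding proteins, fell among 15 S100 genes, with 785 FPKM in iKO and 1269 FPKM in Het cells for S100a4 and 26.6 FPKM in iKO and 59.4 FPKM in Het cells for S100a3.

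**Figure D5:**
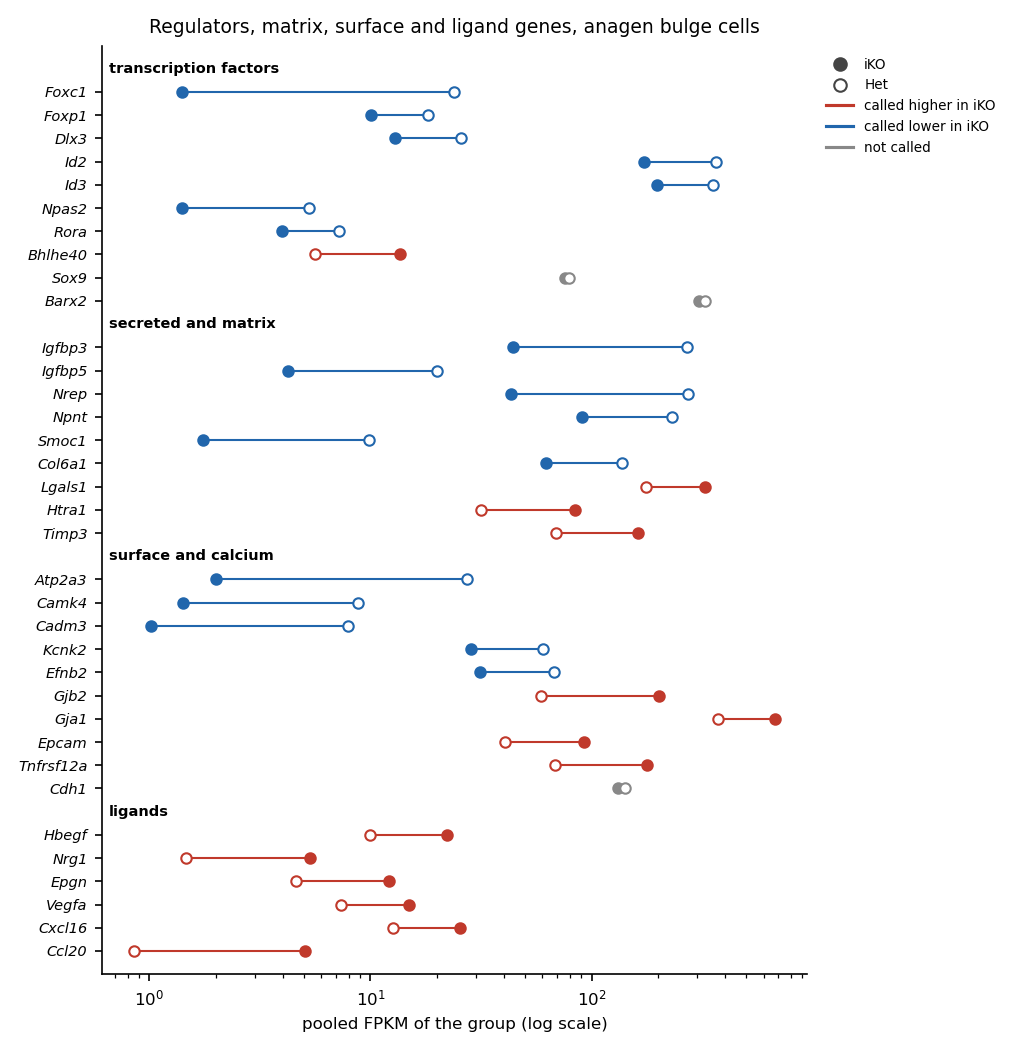
Pooled FPKM in iKO (filled) and Het (open) cells on a log axis for transcription factors, secreted and matrix genes, surface and calcium genes, and ligands; red lines mark genes called higher in iKO cells, blue lines genes called lower, grey lines genes not called. The ligands lie to the right in iKO cells, and most named transcription factors, binding proteins and calcium genes lie to the left.

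Of 34 actomyosin genes 12 rose and 2 fell, with a median log2 ratio of 0.31. Caldesmon (Cald1) had 159 FPKM in iKO and 64.3 FPKM in Het cells, Myl9 had 102 FPKM in iKO and 53.1 FPKM in Het cells, and tropomyosin Tpm2 had 136 FPKM in iKO and 69.2 FPKM in Het cells. Acta2 (10.8 FPKM in iKO, 6.55 FPKM in Het cells) and Cnn1 (3.76 FPKM in iKO, 1.74 FPKM in Het cells) rose too, and both are also markers of pericytes and smooth muscle. Of the other markers on that list, Rgs5 (0.449 FPKM in iKO, 0.682 FPKM in Het cells), Pdgfrb and Myh11 (0.276 FPKM in iKO, 0.345 FPKM in Het cells) were below 1 FPKM and not called, and Cspg4 (35.7 FPKM in iKO, 41.2 FPKM in Het cells) and Tagln (32.00 FPKM in iKO, 13.5 FPKM in Het cells) were higher in level and not called either. The part of those cells was not tested.

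Keratins moved in both directions, with 6 of 42 tested genes higher and 12 lower. Krt17, a keratin of activated and companion layer cells, had 5197 FPKM in iKO and 2304 FPKM in Het cells. This was the largest gain in FPKM of all called genes, but the call of Krt17 was lost in the joint table (q = 0.127, Cuffdiff). Krt17 and Krt16 are the 2 called of 6 measured markers of companion layer and niche cells. Of these 6, 5 had the larger value in iKO cells. The other was Krt75 (9.68 FPKM in iKO, 17.97 FPKM in Het cells), which was not called. The SE of Krt75 exceeded the size of its log2 fold of -0.893. Krt6a was measured only in a merged model with Krt82 and Krt85 (496 FPKM in iKO, 394 FPKM in Het cells), which was not called. Krt16, of activated keratinocytes, had 17.8 FPKM in iKO and 4.74 FPKM in Het cells (3.75-fold higher). Krt24, expressed in the bulge, had 97.00 FPKM in iKO and 161 FPKM in Het cells. Krt80 had 36.6 FPKM in iKO and 100.2 FPKM in Het cells, and the hair keratins Krt33a (2.71 FPKM in iKO, 11.7 FPKM in Het cells) and Krt33b (0.461 FPKM in iKO, 5.02 FPKM in Het cells) fell. All 23 tested keratin-associated proteins of the hair shaft had the smaller value in iKO cells, and 14 fell. Their summed level was 30.1 FPKM in iKO and 175 FPKM in Het cells. Krtap7-1 had 6.36 FPKM in iKO and 36.2 FPKM in Het cells, and Krtap8-1 had 14.9 FPKM in iKO and 54.4 FPKM in Het cells. These genes belong to the shaft of the growing hair rather than to the bulge, and the hair shaft and inner root sheath markers together fell in 12 of 21 cases, with 0 higher and a summed level of 289 FPKM in iKO and 386 FPKM in Het cells. The inner root sheath keratins Krt71 (55.0 FPKM in iKO, 62.7 FPKM in Het cells) and Krt25 (41.2 FPKM in iKO, 48.9 FPKM in Het cells) were not called. Of the markers of the interfollicular epidermis and infundibulum, 2 of 11 rose, Krt1 (122 FPKM in iKO, 77.7 FPKM in Het cells) and Krtdap (494 FPKM in iKO, 192 FPKM in Het cells), and Lor (8.37 FPKM in iKO, 8.33 FPKM in Het cells), a late cornification gene, was not called. Cornified envelope genes gave 3 higher and 3 lower calls of 32 (9.375% each way, against 5.18% and 5.08% of all tested genes), with Sprr1b (2.87 FPKM in iKO, 0.436 FPKM in Het cells) higher and the transglutaminase Tgm5 (42.9 FPKM in iKO, 147 FPKM in Het cells) lower. Melanocyte markers gave 2 lower calls of 10, Mitf (2.15 FPKM in iKO, 7.21 FPKM in Het cells) and Gpnmb (6.13 FPKM in iKO, 9.09 FPKM in Het cells), with a summed level of 35.7 FPKM in iKO and 51.3 FPKM in Het cells. The part of hair shaft cells or melanocytes in these results was not tested.

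Genes of glucose and sterol use were mostly called higher where they were called. Of 34 genes of glycolysis and the hypoxia response 10 rose and 0 fell: Pgk1 had 209 FPKM in iKO and 111 FPKM in Het cells, Ldha had 488 FPKM in iKO and 299 FPKM in Het cells, and the lactate exporter Slc16a3 had 3.56 FPKM in iKO and 1.17 FPKM in Het cells. Aldoa (496 FPKM in iKO, 386 FPKM in Het cells) and Pkm (562 FPKM in iKO, 462 FPKM in Het cells) were not called. Of 26 genes of cholesterol synthesis and uptake 7 rose and 1 fell. Cyp51, a demethylase of the sterol ring, had 25.4 FPKM in iKO and 13.04 FPKM in Het cells, and Idi1, an early enzyme of the pathway, had 56.8 FPKM in iKO and 32.6 FPKM in Het cells, while the exporter Abca1 had 7.67 FPKM in iKO and 12.9 FPKM in Het cells and fell. Fatty acid and lipid synthesis gave 4 higher calls of 34, including Fabp5 (226 FPKM in iKO, 141 FPKM in Het cells).

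Ribosomal and respiratory chain genes were called less often than the 10.3% of all tested genes. Of 78 cytosolic ribosomal proteins 0 were called by Cuffdiff, with 0 higher and 0 lower at an unadjusted p below 0.05 and a median log2 ratio of 0.09. Of 75 mitochondrial ribosomal proteins 0 were called, with 4 higher and 0 lower at an unadjusted p below 0.05 and a median of 0.16, and the joint table called 1 of them higher. Rplp1 had 4952 FPKM in iKO and 4240.1 FPKM in Het cells, and Rps27 had 5448 FPKM in iKO and 5567 FPKM in Het cells. Ribosome biogenesis gave 3 higher calls of 43, Nop58 (80.4 FPKM in iKO, 52.8 FPKM in Het cells), Nolc1 (28.3 FPKM in iKO, 19.8 FPKM in Het cells) and Heatr1 (11.4 FPKM in iKO, 7.49 FPKM in Het cells), but 42 of 43 members had the larger value in iKO cells and the median was 0.32. The respiratory chain gave 3 higher calls of 81, including Cycs (51.8 FPKM in iKO, 34.01 FPKM in Het cells). Chaperones gave 4 higher and 3 lower calls of 46 (8.70% and 6.52%, against 5.18% and 5.08% of all tested genes), with Dnaja1 (136 FPKM in iKO, 34.6 FPKM in Het cells) higher and Hspa1a (75.6 FPKM in iKO, 119 FPKM in Het cells) lower. Antioxidant genes gave 3 higher and 1 lower of 38 (7.89% and 2.63%, against 5.18% and 5.08% of all tested genes). Txnrd1 (26.7 FPKM in iKO, 14.8 FPKM in Het cells) was higher and the metallothionein Mt4 (33.9 FPKM in iKO, 60.2 FPKM in Het cells) lower.

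Stress and immediate early genes were divided. Atf3 had 81.4 FPKM in iKO and 137 FPKM in Het cells, and Nr4a1 had 44.2 FPKM in iKO and 71.1 FPKM in Het cells, both lower. Fos (379 FPKM in iKO, 502 FPKM in Het cells) and Jun (264 FPKM in iKO, 370.2 FPKM in Het cells) were not called. Ier3 had 96.7 FPKM in iKO and 51.2 FPKM in Het cells and Maff had 10.5 FPKM in iKO and 5.19 FPKM in Het cells, both higher. In all, 4 of 28 immediate early genes rose (14.3%) and 5 fell (17.9%). Of 30 genes of the unfolded protein and integrated stress response 1 rose (3.33%) and 3 fell (10%). The shares of all tested genes were 5.18% and 5.08%.

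Outside the lists stood 881 called genes. Cpa4, a carboxypeptidase, had 9.06 FPKM in iKO and 1.83 FPKM in Het cells, and Pla2g7, a phospholipase that inactivates platelet-activating factor, had 24.5 FPKM in iKO and 5.33 FPKM in Het cells, both higher. The serine protease Prss22 had 14.1 FPKM in iKO and 3.08 FPKM in Het cells. Stmn1, which destabilises microtubules, had 331 FPKM in iKO and 132 FPKM in Het cells, and tubulin Tubb5 had 382 FPKM in iKO and 173 FPKM in Het cells. Sfn (14-3-3 sigma) had 1199 FPKM in iKO and 711 FPKM in Het cells. Among large losses, Them5, a mitochondrial thioesterase, had 83.1 FPKM in iKO and 329 FPKM in Het cells, and the calmodulin-like gene Calml3 had 306 FPKM in iKO and 655 FPKM in Het cells. Ache, acetylcholinesterase, had 1.802 FPKM in iKO and 8.48 FPKM in Het cells (4.704-fold lower).

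Some genes were present in Het cells and at or near 0 in iKO cells. Skint4, a member of a family of epithelial surface proteins, had 0.03603 FPKM in iKO and 5.44 FPKM in Het cells, Thbs4 had 0.07595 FPKM in iKO and 1.35 FPKM in Het cells, and Skint9 was listed at 0 in iKO and at 0.958 FPKM in Het cells. In the other direction, Greb1 had 0.341 FPKM in iKO and 0.0753 FPKM in Het cells.

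Set beside telogen, the anagen response had the larger share of calls, 10.3% of tested genes against 6.62% in the comparison of cKO with WT cells. A share of calls depends on the SE as well and does not measure the size of a response. The SE was 0.30 in anagen and 0.38 in telogen for Foxc1, for example, and SEs of both stages were not compared over all genes. The 2 comparisons also differ in the driver of Cre, the genotype of the controls, strain, sex and age, and none of these can be told apart from hair cycle stage. Of 12939 genes tested for a difference between both log2 folds, 85 (0.657%) passed an adjusted p of 0.05, 35 with the more positive fold in anagen (0.271%) and 50 with the more positive fold in telogen (0.386%). Of the members of the replication and mitosis lists 0 were among them, which does not show that both responses were alike. Genes of these lists were called higher in telogen cKO cells too. Cdk1 had a log2 fold of 3.19 (SE 0.46) in telogen and 2.09 in anagen, and Kif11 had 2.82 (SE 0.52) and 1.87. Kif4 had 1.70 (SE 0.52) in telogen and 2.09 in anagen, while Ccne1 (1.00, SE 0.61) was not called in telogen.

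Genes of signalling and of the matrix were among those that differed. Dusp6 was higher in anagen iKO cells (41.2 FPKM in iKO, 13.8 FPKM in Het cells) and lower in telogen cKO cells (29.9 FPKM in cKO and 70.3 FPKM in WT cells), a difference of 2.81 on the log2 scale (SE 0.40). Ier3 did the same, with 123.1 FPKM in cKO and 264 FPKM in WT telogen cells and a difference of 2.02 (SE 0.33). Mmp2, a gelatinase, rose in anagen (30.7 FPKM in iKO, 21.04 FPKM in Het cells) but fell in telogen, with 27.4 FPKM in cKO and 91.99 FPKM in WT cells. Col1a1 went the other way: it fell in anagen and rose in telogen, where it had 60.5 FPKM in cKO and 9.72 FPKM in WT cells, a difference of -3.57 (SE 0.40). Myoc and Dpysl3 followed the same course, with anagen log2 folds of -1.34 and -0.76 and telogen log2 folds of 1.60 and 1.96. Wif1, a WNT inhibitor, was not called in anagen (4.47 FPKM in iKO, 5.502 FPKM in Het cells) and rose in telogen, with 163 FPKM in cKO and 14.7 FPKM in WT cells. Camk4 and Cadm3 fell in both, with the lower log2 folds in telogen, -5.30 and -6.21. For Foxc1 itself the log2 folds were -4.09 in anagen and -4.06 in telogen.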

How the data were processed

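RNA was sequenced from sorted hair follicle stem cells, 2 libraries per group, with the TruSeq mRNA kit per the labels' protocols. TopHat, Cufflinks, Cuffdiff and the build mm9 are named in the submitters' processing notes; versions and settings are not given in the sources used here. Per the file headers, the authors deposited 1 pooled FPKM value per group, the log2 fold of the second over the first group (iKO over Het), a test statistic (a score signed like the fold), and a p-value with its q-value. Adjusting the deposited p-value over the tested genes by Benjamini-Hochberg gave back that q-value to within 5.17e-07. The p-values rest on 2 libraries per group, which the labels call replicates, each from a mouse.

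Calls rest on the authors' q-value at 0.05. The SE is the log2 fold divided by the statistic and is approximate: for 1039 tested genes the deposited p was below 0.05 and a normal p of the statistic was not, and for 101 the reverse held. Differences between anagen and telogen folds were tested as a two-sided z value of both log2 folds with Benjamini-Hochberg adjustment. Genes of the latter kind were left out. The procedure was run on simulated data whose errors had the derived SE by design, so that run could not check the SE itself. Lists are described by calls and by the median log2((FPKM + 1) ratio); 160 symbols on more than 1 row were represented by the row with the highest FPKM. The members, lists and tests were chosen with earlier results of these data known. Named genes were Foxc1 and its neighbours within 1 Mb, the 15 highest and lowest folds, the 12 largest FPKM changes each way, up to 10 genes each way near 0 in a group, up to 5 called and 2 abundant uncalled members per list (all members of lists of 12 or fewer), the 8 strongest anagen and telogen differences each way, and the 10 most abundant genes. Left out as not testable were Krt15, Krt5, Lamb3, Ddx19b and Mir3473d. Promoter windows came from RefSeq (GRCm38.p6), the first listed per symbol. Motif shares over all called or all tested genes are void, since under 80% of those genes had a window. Python 3.11.15, pandas 2.3.3, scipy 1.17.1 and matplotlib 3.10.9 were used. Alternatives are given in the closing part. Some genes are counted in their lists but not reported here by name.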

Additional observations from a re-analysis of the deposited data

Results flagged for a closer look

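For 33 of the named genes the knockout effect in anagen (log2 fold of iKO over Het) differed from that in telogen (log2 fold of cKO over WT) by the z test of the difference. Some of these genes were named because they had the strongest differences in this test, so their passing was fixed by that choice. The count of 33 therefore gives no rate. Over all 12939 genes in the test, 85 passed (0.657%). Each value below is the anagen minus the telogen log2 fold with its approximate SE. The stages share no library, and driver, control genotype, strain, sex and age change with stage, so none of these can be told apart.

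Among regulators of signalling, the more positive fold in anagen was seen for Dusp6 (2.81, SE 0.40), Hbegf (2.29, SE 0.41), Il18r1 (3.07, SE 0.80), Ier3 (2.02, SE 0.33) and Maff (2.14, SE 0.42). The same direction held for Camk4 (2.66, SE 0.59) and Cadm3 (3.24, SE 0.64), which fell in both stages. Further genes of this direction were Mmp2 (2.29, SE 0.40), Pcolce2 (2.44, SE 0.57), the metallothionein Mt2 (1.44, SE 0.29) and the model Mir17hg,Mir19b-1 (1.91, SE 0.33).

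The more positive fold in telogen was seen for the WNT genes Wif1 (-3.77, SE 0.45) and Lef1 (-2.78, SE 0.72) and for the stem cell receptor Lgr6 (-1.64, SE 0.43). It was also seen for the matrix genes Col1a1 (-3.57, SE 0.40), Bgn (-2.63, SE 0.41), Smoc1 (-2.40, SE 0.52), Myoc (-2.94, SE 0.47) and Adamts17 (-2.50, SE 0.53). Differentiation genes of this direction were Tgm5 (-2.06, SE 0.55), Krt79 (-1.72, SE 0.44) and Sprr4 (-3.27, SE 0.23). The others were Atp6v1b1 (-4.31, SE 0.64), Ache (-2.91, SE 0.56), Dpysl3 (-2.72, SE 0.45), BC100530 (-2.65, SE 0.69), Hist1h2bc (-1.89, SE 0.52), Them5 (-1.72, SE 0.37) and the RNA gene Rmrp (-2.98, SE 0.36).

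For a further 4 genes of the more positive fold in anagen the levels were as follows. Pde4dip (7.35, SE 0.47) had 4.87 FPKM in cKO and 1033 FPKM in WT telogen cells, with 4.33 FPKM in iKO and 5.64 FPKM in Het cells in anagen. Ercc2 (5.84, SE 0.70) had 8.12 FPKM in cKO and 176 FPKM in WT telogen cells, and its anagen change (129 FPKM in iKO, 49.00 FPKM in Het cells) was not called. Dnaja1 (3.94, SE 0.31) had 72.9 FPKM in cKO and 285 FPKM in WT telogen cells, with 136 FPKM in iKO and 34.6 FPKM in Het cells in anagen. Cnot3 (2.07, SE 0.32) had 34.4 FPKM in cKO and 56.5 FPKM in WT telogen cells, with 44.00 FPKM in iKO and 17.2 FPKM in Het cells in anagen. For Ercc2 and Sprr4 the SE is smaller than the deposited p allows, since both had a large statistic and were not called in anagen. The same limit holds for the telogen folds of Cnot3 (log2 fold -0.72, SE 0.22, q = 0.237 by Cuffdiff) and Dnaja1 (log2 fold -1.97, SE 0.19, q = 0.0413 by Cuffdiff). Their differences are therefore less certain than the SE shows, and the other genes of this part were not checked for this.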

How the results depend on the processing

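The count of 1408 called genes stayed within 1.5 times under the joint table (1495), its p re-adjusted for the anagen pair alone (1128), and a minimum of 1 FPKM in a group (1364). It fell to 929 at q below 0.01 (424 of them lower in iKO cells), to 663 for calls of at least 2-fold (378 higher and 285 lower), and to 783 with a normal p of the statistic (450 higher and 333 lower). The joint table is another fit of the same anagen libraries, and its log2 folds had a median absolute difference of 8e-05 from those used here. Agreement in direction was therefore fixed in advance and is no independent check. Of the called genes tested in the joint table, 706 of 710 higher and 693 of 695 lower genes were called there too. Calls in the opposite direction numbered 0. Of 489 named log2 folds 484 kept their direction and call in the joint table; Krt17 (q = 0.127) and Csrp1 (q = 0.0658) lost the Cuffdiff call, and Dct, Dhcr7 and Elovl3 gained it. No direction was reversed under these alternatives. The 85 anagen and telogen differences became 133 with both pairs from the joint table (55 positive and 78 negative) and 129 with genes kept whose p does not follow the statistic (60 positive). The median log2 ratio of keratin-associated proteins was -3.44 with a pseudocount of 0.1 and -0.67 with 5. A stricter threshold or fold calls fewer genes by construction; for the other changed counts the cause was not tested. No paired analysis was possible because the tables hold 1 pooled value per group, and for the same reason leaving out each replicate was not run. Depth is unknown, and below 1 FPKM the median SE of 0.65 limits what can be called.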
